A study of Mus musculus with 2 samples.

Results

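The cells described here were G2/M-like, Myog-low induced myogenic progenitor cells (iMPCs), droplets whose RNA was rich in transcripts of mitotic genes and poor in Myog, which encodes myogenin, a transcription factor of differentiating muscle cells. They were chosen by measured values in each library on its own. A cell barcode was a member when Mki67, Top2a, Cenpf, Ube2c, Tpx2, Birc5 and Cdk1 together gave at least 20 unique molecular identifiers (UMIs) per 10000 and Myog gave under 5 per 10000. This rule took 3174 of the 14796 barcodes that passed quality limits, out of 17541 barcodes in all.

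iMPCs are muscle progenitor-like cultures made from mouse fibroblasts by brief expression of MyoD, the master transcription factor of the muscle lineage, together with small molecules. Both clones carried the genotype Tg:Pax7-nGFP/C57BL6;DBA2, in which a nuclear green fluorescent protein reports the stem cell factor Pax7, and both were made by 4 rounds of transfection with synthetic MyoD mRNA in medium with B18R, a decoy receptor for interferon. The F/R/C library came from a clone derived and kept in Forskolin (F, an activator of cyclic AMP production), RepSox (R, a blocker of TGF-β receptor signalling) and CHIR (C, an inhibitor of the kinase GSK3). The F/R/C+CP library came from another clone treated alike but with CP, which inhibits JAK kinases, added throughout. Both clones were transgene-free, myofibers were filtered out before loading, and RNA was counted from the 3′ end by droplet sequencing. There was 1 library and 1 clone for each treatment, so treatment and clone cannot be told apart from the library and nothing between them could be tested.

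During G2 and mitosis a cell condenses its chromosomes, builds a spindle, attaches each chromosome to it through the kinetochore and then divides. The genes for this work are switched on late in the cycle by the MuvB complex with B-MYB and FOXM1, and in resting cells the same MuvB core, as part of the DREAM complex, holds them off. Many of their promoters carry CCAAT boxes, bound by the factor NF-Y, and a cell cycle homology region (CHR), bound by MuvB. In muscle, Pax7-positive progenitors divide before they commit, and commitment to differentiation brings Myog and exit from the cycle.

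In the F/R/C library 910 of 3962 kept barcodes were members (23.0%, 95% exact interval 21.7 to 24.3). In the F/R/C+CP library 2264 of 10834 were members (20.9%, interval 20.1 to 21.7). Among Myog-low barcodes alone the shares were 33.7% and 31.2%. All intervals given here cover counting error only, since cells of 1 library are not replicates. Each library also held Myog-low barcodes with a sum under 5, which served as the comparison (1133 and 3122 barcodes), and Myog-low barcodes with a sum from 5 to under 20, called the middle group (655 and 1877). Barcodes with a sum of 20 or more but Myog at 5 or above, called cycling Myog-high here, numbered 203 (5.12%) and 285 (2.63%).

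**Figure D1:**
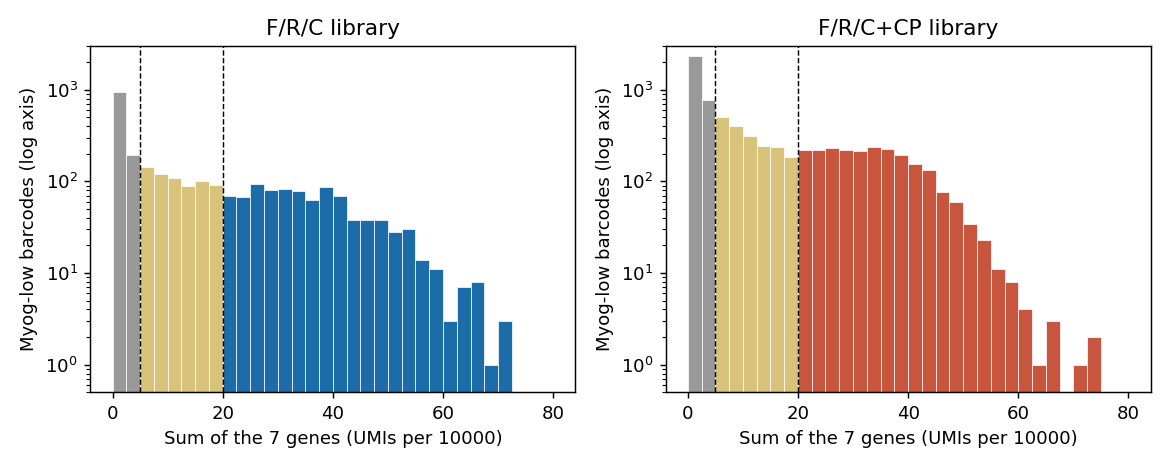
Number of Myog-low barcodes (log axis) by the summed level of the 7 rule genes in UMIs per 10000, with 1 panel per library, where grey marks the comparison, yellow the middle group and colour the members, and dashed lines mark the limits of 5 and 20. The sum runs on through both limits without a gap, up to 72.2 in F/R/C iMPCs and 74.3 in F/R/C+CP.

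The sum of the 7 genes in members ran from 20.1 through a median of 34.4 to 72.2 UMIs per 10000 in F/R/C. With CP it ran from 20.01 through 32.8 to 74.3. The distribution was continuous, so the members are one range of a score and not a separated cluster. The 50 barcodes just inside the limit had a median sum of 20.9 in F/R/C and the 50 just outside had 19.4, with 964 and 1000 counts per 1000000 (CPM) of 10 other G2/M genes. The F/R/C+CP medians were 20.3 and 19.7, with 833 and 763 CPM of the 10 genes.

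Each of the 7 genes made up part of the members' signal. Top2a, the topoisomerase that untangles sister DNA, gave 21.1% of the rule's UMIs in F/R/C iMPCs and 28.8% in F/R/C+CP. Ube2c, the ubiquitin-conjugating enzyme of the anaphase promoting complex, gave 20.1% and 15.1%. Cenpf, a kinetochore-associated protein, gave 16.3% and 18.2%. Mki67, whose product coats mitotic chromosomes, gave 12.2% and 13.4%. Cdk1, the kinase that drives entry into mitosis, gave 12.4% and 7.41%. Birc5, or survivin, of the chromosomal passenger complex gave 10.6% and 8.95%, and Tpx2, a spindle assembly factor, gave 7.42% and 8.19%. All 7 were seen in the same barcode in 569 members of F/R/C (62.5%) and 2168 of F/R/C+CP (95.8%), at different depths.

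The levels of the rule genes, in CPM of counts summed over the barcodes of a group, are a description of the choice, and a level given against another is that of members against the comparison. Mki67 stood at 446 CPM in members and 11.4 in the comparison in F/R/C, and at 449 against 18.3 in F/R/C+CP. Cenpf had 595 CPM against 8.65 in F/R/C, and 610 against 17.7 in F/R/C+CP. Myog, which the rule kept low, was 33.4 CPM in members and 60.4 in the comparison in F/R/C, and 95.8 against 169 in F/R/C+CP. In the cycling Myog-high barcodes it stood at 1725 and 1281 CPM.

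Members carried more RNA per droplet than the comparison. Their median was 8629 UMIs (range 500 to 14676) against 5923 in F/R/C, a ratio of 1.46. With CP it was 24722 UMIs (range 12097 to 55907) against 17696, a ratio of 1.40. Their mitochondrial share was 7.17% against 7.66% in F/R/C and 5.08% against 5.67% in F/R/C+CP. The lowest depth differed between the libraries. Of the F/R/C members, 55 held under 2000 UMIs, and their sarcomere transcripts stood at 5187 CPM, against 1769 in the other members. No member of F/R/C+CP was so shallow. The libraries shared 18 barcode sequences, 1 of them among members. Scrublet, a doublet caller, marked only 4 of 3962 and 299 of 10834 kept barcodes, and none was removed. With the 176 and 1040 highest-scoring barcodes left out, the shares of members were 23.0% and 21.2%.

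Because the members were chosen on counts from the same barcodes, every ratio to the comparison is a description of the rule, and the share of all genes called in the same direction is printed only as background. A gene is called here at a ratio of at least 2-fold, that is 1 on the log2 scale, among genes with a mean of at least 10 CPM. In F/R/C 308 of 8368 genes (3.68%) were called higher in members and 265 (3.17%) lower. Of the F/R/C+CP genes, 321 of 8194 genes (3.92%) were called higher and 462 (5.64%) lower. Of the 7699 genes tested in both, 268 (3.48%) were called higher in both libraries and 166 (2.16%) lower in both, and no gene was called in opposite directions. The 268 genes were 92.4% of those called higher in F/R/C and 88.7% of those called higher in F/R/C+CP. The 166 genes were 77.9% and 53.9% of those called lower.

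**Figure D2:**
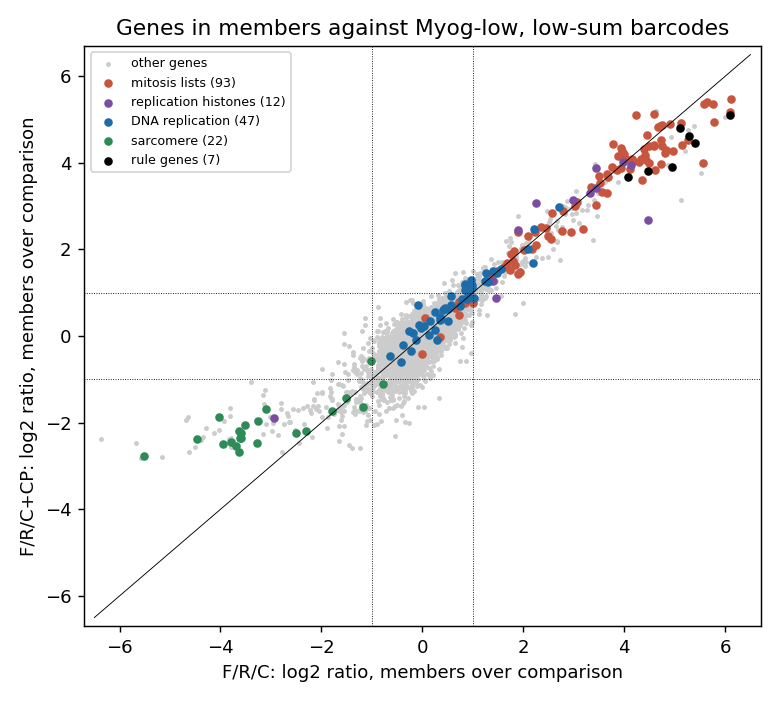
Log2 ratio of members over the comparison for each of 7699 genes in F/R/C (x axis) and F/R/C+CP (y axis), with dotted lines at 2-fold and a diagonal of equal ratios, and with colours for the mitosis lists, replication histones, DNA replication, sarcomere and rule genes. The mitosis genes lie near the diagonal at the upper right, and the sarcomere genes lie lower left and above the diagonal. The DNA replication genes lie mostly above 0, with list medians of 0.51 (x axis library) and 0.70 (y axis library). Of the 47 tested in both, 10 were called higher in both and none lower in both.

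Across the 7699 genes the log2 ratios of the libraries gave a Pearson r of 0.90 and a Spearman rho of 0.76, where genes are not independent and both axes rest on the same rule. The plot of ratios in one library against the other shows where they parted. Sarcomere genes had a median of -3.56 in F/R/C iMPCs and -2.24 in F/R/C+CP, a smaller gap in the latter. Over all genes tested the median was 0.04 and 0.09.

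The 10 genes outside the rule with the largest ratio in both libraries were Nusap1, Kif11, Kif2c, Aspm, Kif14, Depdc1a, Aurkb, Prc1, Kif4 and Esco2. Nusap1, which bundles spindle microtubules around chromosomes, stood at 125 CPM in members and 1.82 in the comparison in F/R/C, and at 175 against 3.96 in F/R/C+CP. Its log2 ratios were 6.11 (interval 5.29 to 7.06) and 5.46 (5.29 to 5.65). Kif11, the motor that pushes spindle poles apart, had 243 CPM against 4.86 in F/R/C and 144 against 3.41 in F/R/C+CP. Prc1, which crosslinks the central spindle, had 308 CPM against 8.80 in F/R/C and 384 against 12.6 in F/R/C+CP. Aspm, a spindle pole protein, had 124 CPM against 2.58 in F/R/C and 99.2 against 2.43 in F/R/C+CP. Esco2, which acetylates cohesin during replication, was the one of these with a role in S phase, at 63.5 CPM against 1.52 in F/R/C and 65.6 against 2.27 in F/R/C+CP. Of the 40 genes ranked highest, 35 were in one of the cell cycle lists. Genes of these lists move with the rule genes, so this count describes the choice and is not a separate result.

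All 21 mitotic cyclins and kinases that passed the filter were called higher in both libraries, with median log2 ratios of 3.75 in F/R/C iMPCs and 3.91 in F/R/C+CP. Ccnb1, the cyclin partner of Cdk1, stood at 174 CPM in members, 51.2 in the middle group and 6.52 in the comparison in F/R/C. With CP it stood at 172, 49.98 and 11.02 CPM. Its log2 ratios were 4.73 (interval 4.30 to 5.21) and 3.96 (3.85 to 4.07). Plk1, a kinase of mitotic entry and centrosome maturation, had 105 CPM against 2.73 in F/R/C and 107 against 4.62 in F/R/C+CP. Aurka, the spindle pole kinase, had 91.1 CPM against 3.79 in F/R/C and 84.4 against 2.42 in F/R/C+CP. Aurkb, the kinase of the chromosomal passenger complex, had 91.1 CPM against 1.67 in F/R/C and 80.6 against 2.62 in F/R/C+CP. Cdc25c, the phosphatase that releases Cdk1 from inhibition, and Wee1, the kinase that imposes that inhibition, were both higher, with log2 ratios of 4.97 and 1.94 in F/R/C iMPCs and 4.28 and 1.49 in F/R/C+CP. Cks2, which binds Cdk1, had 421 CPM against 70.9 in F/R/C and 315 against 44.0 in F/R/C+CP.

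Of the kinetochore and centromere genes, 34 of 37 in F/R/C and 34 of 38 in F/R/C+CP were called higher, with medians of 2.45 and 2.41. Cenpe, the motor that carries chromosomes to the spindle equator, stood at 227 CPM in members and 8.50 in the comparison in F/R/C, and at 241 against 11.5 in F/R/C+CP. Cenpa, the histone that marks centromeres, had 274 CPM against 33.5 in F/R/C and 218 against 27.2 in F/R/C+CP. Knl1, the scaffold for the spindle checkpoint, had log2 ratios of 4.83 and 4.31. Incenp, the scaffold of the passenger complex, had 220 CPM against 8.34 in F/R/C and 137 against 5.95 in F/R/C+CP. Zwint was the exception among the better expressed members of the list, at 210 against 203 CPM in F/R/C iMPCs and 84.7 against 63.9 in F/R/C+CP, with log2 ratios of 0.05 (interval -0.06 to 0.16) and 0.41 (0.35 to 0.47).

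Of the spindle and cytokinesis genes, 29 of 35 were called higher in each library, with medians of 4.24 and 4.19. Hmmr, which binds hyaluronan and spindle microtubules, had 170 CPM against 6.68 in F/R/C and 209 against 7.42 in F/R/C+CP. Kif14, a cytokinesis motor, had log2 ratios of 6.09 and 5.18. Kif5b, the conventional kinesin of cargo transport, did not follow them, with log2 ratios of -0.003 (interval -0.11 to 0.10) and -0.42 (-0.45 to -0.39).

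The anaphase promoting complex list, which marks mitotic proteins for destruction, was split, with 6 of 20 genes called higher in each library and medians of 0.59 and 0.55. The 6 included the activators and substrates rather than the core: Cdc20, the mitotic activator, stood at 173 CPM in members and 11.2 in the comparison in F/R/C, and at 129 against 8.71 in F/R/C+CP. Pttg1, or securin, which guards separase, had 85.9 CPM against 13.5 in F/R/C and 69.1 against 15.2 in F/R/C+CP. Fzr1, the activator of late mitosis and G1, had 65.5 CPM against 11.7 in F/R/C and 49.6 against 13.99 in F/R/C+CP. Espl1, the separase itself, had log2 ratios of 4.93 and 4.59.

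Chromosome structure genes gave 18 of 32 and 18 of 31 called higher, with medians of 1.07 and 1.12. Smc4, of the condensin complex, stood at 444 CPM in members, 235 in the middle group and 77.7 in the comparison in F/R/C. With CP it stood at 382, 198 and 61.3 CPM. Smc2, its partner, had log2 ratios of 2.48 and 2.89. Hmgb2, a chromatin protein of dividing cells, had 805 CPM against 102 in F/R/C and 1208 against 187 in F/R/C+CP. H2az1, which encodes the histone variant H2A.Z, was closer to the limit, with log2 ratios of 1.09 (interval 1.04 to 1.13) and 1.14 (1.12 to 1.15).

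Tubulin and nuclear transport genes gave 7 and 6 of 18 called higher, with medians of 0.87 and 0.81. Tubb5 had 2026 CPM against 886 in F/R/C and 1081 against 473 in F/R/C+CP, with a log2 ratio of 1.19 in each. Tubb4b had log2 ratios of 1.95 and 1.65, while Tubb2a had 0.86 in F/R/C iMPCs and -0.58 in F/R/C+CP. Tubulin genes have near-identical copies, and the counting could divide their reads, so single tubulin values are uncertain. Kpna2, an importin of the nuclear transport machinery, had log2 ratios of 3.62 and 3.56.

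The transcription factors of the mitotic programme were themselves higher in members. Foxm1 stood at 25.3 CPM in members, 16.1 in the middle group and 1.97 in the comparison in F/R/C. The F/R/C+CP levels were 21.8, 12.6 and 1.76 CPM. Mybl2, which encodes B-MYB, was highest in the middle group, with 20.8, 25.3 and 5.31 CPM in F/R/C iMPCs and 11.6, 18.9 and 3.704 in F/R/C+CP, where its mean was under the filter. Lin9, a core subunit of MuvB, had log2 ratios of 1.30 and 1.46. In the whole DREAM, MuvB and E2F list 6 of 22 and 6 of 21 genes were called higher, with medians of 0.55 and 0.53. E2f1, an activator of G1/S genes, was close to even at -0.13 (interval -0.42 to 0.16) and 0.11 (0.005 to 0.21), and E2f6, a repressor, stood at -0.51 and -0.74.

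The promoters of some of these genes show the motifs named above. The sequences below are the 100 bases before the transcription start, 5′ to 3′ on the gene's strand, from the RefSeq promoter table of build GRCm38.p6. They belong to 3 of the rule genes (Ube2c, Cdk1, Top2a) and to Cdc20 and Kif11 outside it, and are shown as examples in which both motifs stand close to the start. Capitals mark CCAAT or its reverse complement ATTGG, and TTTGAA, its reverse complement TTCAAA, or TTCGAA, the letters searched for as a CHR.
Ube2c: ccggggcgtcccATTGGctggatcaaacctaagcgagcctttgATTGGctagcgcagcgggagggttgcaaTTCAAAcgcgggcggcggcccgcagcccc
Cdk1: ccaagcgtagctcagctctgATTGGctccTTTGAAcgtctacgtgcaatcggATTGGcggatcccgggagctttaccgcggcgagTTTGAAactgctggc
Top2a: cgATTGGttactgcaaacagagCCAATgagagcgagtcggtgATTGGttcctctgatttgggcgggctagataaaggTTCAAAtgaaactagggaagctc
Cdc20: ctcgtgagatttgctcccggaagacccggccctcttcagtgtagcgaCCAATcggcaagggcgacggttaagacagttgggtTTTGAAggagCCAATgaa
Kif11: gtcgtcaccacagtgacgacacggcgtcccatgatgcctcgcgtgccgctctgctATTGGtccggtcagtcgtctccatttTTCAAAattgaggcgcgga
The windows are chr2:164769829-164769928 (plus strand) for Ube2c, chr10:69352913-69353012 (minus) for Cdk1, chr11:99024190-99024289 (minus) for Top2a, chr4:118437344-118437443 (minus) for Cdc20 and chr19:37376282-37376381 (plus) for Kif11. These 5 were chosen because they hold both motifs within these 100 bases. In the same stretch Mki67 held CHR only, and Cenpf, Ccnb2, Plk1 and Aurka held CCAAT only, with CHR elsewhere in their 300-base windows. Birc5 and Nusap1 held neither motif in their 300-base windows, and Ccnb1 held CCAAT only. Prc1, which is not printed, also held both motifs within the 100 bases of the window chr7:80294376-80294475 (plus strand), with CCAAT at -62 and CHR at -30. In its other window the CHR match at -5 ran past the start. Tpx2 and Aurkb were not matched.

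Over windows of 300 bases, 250 before to 50 after the start, and on both strands, 38.6% of the 251 promoters of the 268 genes called higher in both libraries, rule genes included, held both motifs (219 genes matched). Of the 6 rule-gene promoters matched, 5 held both. Of the 77 promoters of mitosis genes among them, 51.9% held both. For all 32851 promoters in the table the share was 7.52%, and for the 7978 promoters of the genes tested it was 5.80%. The 48 promoters of the DNA replication list held both in 12.5%. Taken alone, CHR matches stood in 53.8% of promoters of the genes called higher, 13.96% of those of the genes tested and 20.8% of those of the replication list, and CCAAT stood in 67.3%, 37.9% and 54.2%. The motifs were searched for separately, and their matches can share a base at their ends. A match is not a bound site, and the genes were matched by symbol since the table's build differs from that of the counts (GRCm39).

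**Figure D3:**
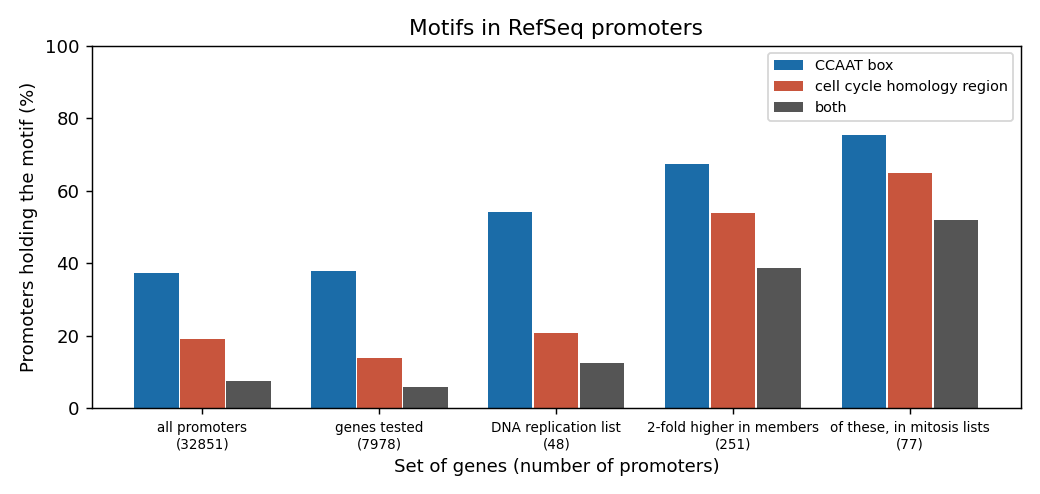
Percent of 300-base promoter windows that hold CCAAT, a CHR match or both, for all promoters, the genes tested, the genes called higher in both libraries, the mitosis genes among these and the DNA replication list. The share with both motifs is 7.52% for all promoters, 38.6% for the genes called higher and 51.9% for the mitosis genes among them.

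Whether the name G2/M-like fits was checked with Ccnb1, Ccnb2, Plk1, Cdc20, Aurka, Aurkb, Bub1, Cenpe, Cenpa and Hmmr, which the rule did not use, set against the DNA replication list of S phase. These genes are known to move together with the rule genes, so the check shows the kind of cell and is not independent. The replication list summed to 3613 CPM in members, 4415 in the middle group and 2472 in the comparison in F/R/C. The F/R/C+CP sums were 3215, 4157 and 1973 CPM. The replication list was thus highest in the middle group and the G2/M genes highest in the members. Replication histones, also made in S phase, were instead highest in the members. They summed to 1639 CPM in members, 1121 in the middle group and 275 in the comparison in F/R/C. With CP the sums were 3843, 2692 and 651 CPM. The S-phase lists thus did not rank the groups alike. In single genes of the DNA replication list 11 of 48 and 16 of 47 were called higher, with medians of 0.51 and 0.70. The medians were 0.91 and 1.12 for the middle group over the comparison.

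Some genes that load or start replication were lower in members than in the middle group. Pcna, the sliding clamp, stood at 163 CPM in members, 220 in the middle group and 128.5 in the comparison in F/R/C. The F/R/C+CP levels were 94.8, 144 and 70.1 CPM. Mcm6, of the replicative helicase, was at 116, 182 and 152 CPM in F/R/C iMPCs and 95.3, 161 and 110 in F/R/C+CP, so its members lay below both other groups. Ccne2, the cyclin of S phase entry, reached 27.9, 95.3 and 35.7 CPM in F/R/C+CP, and Cdc6, which loads the helicase, stood at 9.58, 28.4 and 14.5. Ung, which removes uracil from DNA and is made around S phase, reached 3.35, 20.7 and 16.9 CPM in F/R/C+CP, with a log2 ratio of -2.33 (interval -2.56 to -2.11). Other genes of the list stood well above the comparison in the members. Rrm2, a subunit of ribonucleotide reductase, stood at 94.45 against 22.2 CPM in members and comparison in F/R/C. With CP it stood at 65.3 against 16.3 CPM. Against the middle group Rrm2 was not higher in members once barcodes were thinned to equal depth. It was then seen in 16.1% of members and 18.0% of the middle group in F/R/C, where the intervals overlapped. The shares were 10.6% and 15.2% in F/R/C+CP. Dbf4, the activator of the Cdc7 kinase, had log2 ratios of 2.71 and 2.97, and Tk1, thymidine kinase, 2.22 and 2.47.

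Homologous recombination and checkpoint genes gave 12 of 19 called higher in each library, with medians of 1.23 and 1.44. Fancd2, of the Fanconi anaemia pathway, had 31.8 CPM against 2.88 in F/R/C and 29.5 against 4.32 in F/R/C+CP. Brca1 had log2 ratios of 1.23 and 1.59. Replication histones, which are made in S phase and mostly lack a poly(A) tail, gave 11 of 12 and 23 of 25 called higher, with medians of 3.15 and 3.23. H1f5, a linker histone, stood at 588 CPM in members, 422 in the middle group and 54.2 in the comparison in F/R/C, and at 1070, 823 and 73.1 in F/R/C+CP. H2ac24 had log2 ratios of 4.14 and 3.94. H2bc4 was the 1 histone called lower, at 9.59 against 73.7 CPM in F/R/C iMPCs and 68.3 against 253 in F/R/C+CP. Histone genes are near-identical copies and their single values are uncertain.

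To set barcodes of unlike depth side by side, each was thinned to 2000 UMIs, which left 855 and 2264 members. Of these, 624 (73.0%, interval 69.9 to 75.9) in F/R/C and 1641 (72.5%, 70.6 to 74.3) in F/R/C+CP had more UMIs of the 10 G2/M check genes than the 95th percentile of the comparison. In contrast, 35 (4.09%) and 131 (5.79%) were above that percentile for the replication genes. That percentile was 1 UMI for the check genes in both libraries, and 14 and 12 UMIs for the replication genes. Members held a median of 3 check-gene UMIs and the comparison 0. For replication genes the medians were 7 against 4 in F/R/C and 6 against 3 in F/R/C+CP. The comparison was chosen for few G2/M transcripts but could hold S-phase RNA, which sets the limits apart. The shares thus cannot show that members lacked S-phase RNA. At this depth 212 (24.8%) and 556 (24.6%) of the members passed neither limit.

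Shares of barcodes with a UMI were read after the same thinning beside a group that should lack the genes, the 10% of kept barcodes richest in sarcomere transcripts. Ccnb1 was seen in 26.5% of members, 0.898% of the comparison and 1.83% of the muscle-rich 10% in F/R/C, where unthinned shares were 70.4%, 3.49% and 4.57%. In F/R/C+CP the thinned shares were 28.7%, 2.08% and 1.75%, and the unthinned ones 91.9%, 17.3% and 27.9%. The median depths of these barcodes before thinning were 8768, 6316 and 8222 UMIs in F/R/C iMPCs and 24722, 17696 and 41268 in F/R/C+CP. Ccnb1 in the comparison thus lay at the level of background.

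Among the members the G2/M and replication genes ran in opposite directions along the sum. The 10 check genes gave 1109, 1623 and 2014 CPM in F/R/C members with a sum of 20 to under 30 (312 barcodes), 30 to under 50 (493) and 50 or more (105). With CP they stood at 1020, 1639 and 2212 CPM (889, 1288 and 87 barcodes). The replication list went from 4113 through 3435 to 3125 CPM in F/R/C and from 3668 through 2960 to 2464 in F/R/C+CP. Pcna went from 201 through 154 to 107 CPM in F/R/C and from 121 through 79.9 to 52.4 in F/R/C+CP. Ccne2 stood at 49.5, 15.1 and 4.33 CPM over the same bins in F/R/C+CP. The members nearest the limit thus carried the most RNA of the replication list, and those with the highest sum the least. The bins were cut on the sum itself, so these are descriptions, and the sarcomere level changed little across them (1898, 1752 and 1727 CPM in F/R/C).

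**Figure D4:**
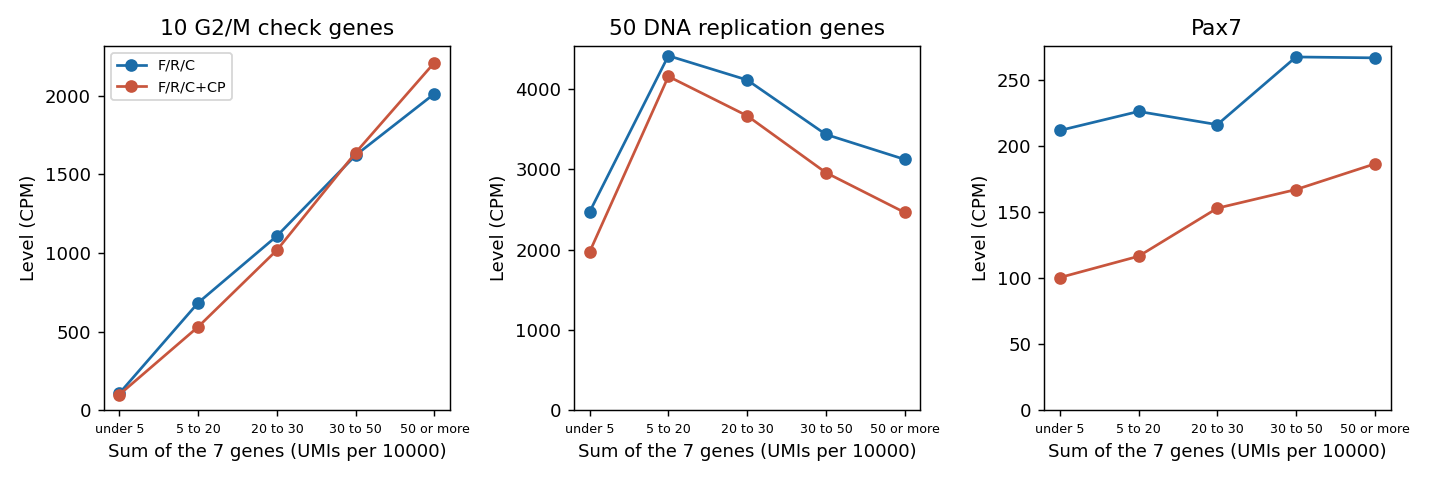
Level in CPM of the 10 G2/M check genes (left), 50 DNA replication genes (middle) and Pax7 (right) over 5 bins of the 7-gene sum in Myog-low barcodes, with 1 line per library. The check genes climb to 2014 and 2212 CPM in the highest bin, the replication genes peak in the bins around the limit of 20, and Pax7 stands at 267 and 187 CPM in the highest bin.

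The word progenitor rested on the Pax7 markers. Pax7, the transcription factor of muscle stem cells, stood at 251 CPM in members, 226 in the middle group, 212 in the comparison and 34.0 in cycling Myog-high barcodes in F/R/C. The F/R/C+CP levels were 163, 117, 101 and 26.3 CPM. A Pax7 UMI was seen in 692 F/R/C members and 2018 F/R/C+CP members, and 218 (24.0%) and 246 (10.9%) had none. After thinning the shares with Pax7 were 38.2% of members, 32.8% of the comparison and 1.83% of the muscle-rich 10% in F/R/C iMPCs, and 26.4%, 20.02% and 1.01% in F/R/C+CP, against unthinned shares of 80.0%, 61.5% and 5.18% and of 89.1%, 68.1% and 14.3%. The share with Pax7 was thus above that of the muscle-rich 10% in members and comparison alike. Members without a Pax7 UMI held 1386 CPM of the check genes against 1535 in those with one in F/R/C, and 1393 against 1424 in F/R/C+CP. The 7 Pax7 progenitor markers summed to 609 CPM in members and 521 in the comparison in F/R/C, and to 361 and 248.5 in F/R/C+CP, with 5 of the 7 higher in each and Chrdl2 at 0 in F/R/C members.

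Other regulators of the lineage stood close to the comparison. Pax3, the paralogue of Pax7, had a log2 ratio of 0.06 (interval -0.21 to 0.33) in F/R/C, while with CP it was below the filter at 5.17 and 14.2 CPM. Myf5, a myogenic factor of early progenitors, had 61.2 CPM against 69.3 in F/R/C, and 4.29 against 5.17 in F/R/C+CP, where its share of barcodes after thinning (0.795%) lay at that of the muscle-rich 10% (1.01%). Myod1, the factor used for reprogramming, had 65.0 CPM against 52.2 in F/R/C and 102 against 77.4 in F/R/C+CP, with log2 ratios of 0.32 (interval 0.11 to 0.52) and 0.40 (0.35 to 0.46). In cycling Myog-high barcodes it stood at 275 and 218 CPM. Msc, or musculin, and Sox8 had log2 ratios of 0.33 and 0.49 in F/R/C iMPCs and 0.17 and 0.67 in F/R/C+CP. Id3, an inhibitor of MyoD-type factors, had 633 CPM against 462 in F/R/C and 504 against 337 in F/R/C+CP.

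Genes of commitment and muscle were lower in members. Mef2c, a partner of MyoD in differentiation, had 37.8 CPM against 296 in F/R/C and 176 against 708 in F/R/C+CP, and Myf6, a late myogenic factor, had 9.13 CPM against 50.5 in F/R/C+CP. Mymk, the membrane protein of myoblast fusion, had 7.97 CPM against 43.1 in F/R/C and 24.8 against 137 in F/R/C+CP, against 316 and 199 in cycling Myog-high barcodes. Differentiation and fusion genes were called lower in 10 of 15 and 11 of 16, and sarcomere genes in 21 of 22 and 24 of 25. Acta1, skeletal actin, had 80.0 CPM against 973 in F/R/C and 735 against 3749 in F/R/C+CP. These levels are sums over all barcodes of a group. After thinning, F/R/C members held a median of 3 sarcomere UMIs (highest 26) and the comparison 4 (highest 305). With CP the medians were 16 (highest 95) and 21 (highest 473). Acta1 was then seen in 16.3% of members and 24.0% of the comparison in F/R/C, and in 76.0% and 85.2% with CP. Median barcodes thus differed less in sarcomere RNA than the summed levels. Ttn, the giant spring of the sarcomere, had log2 ratios of -3.27 and -2.47. The muscle marker list summed to 481 CPM in members and 5524 in the comparison in F/R/C, and to 3830 and 20600 in F/R/C+CP, with none of its 10 genes higher in members and none at 0.

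The sarcomere difference moved with the makeup of the comparison. When both groups were limited to barcodes with a Pax7 UMI (692 against 625, and 2018 against 2126), the sarcomere medians were -1.57 and -1.17, while the mitotic cyclins and kinases stood at 3.89 and 3.64. Mef2c was then -0.86 and -0.85. When the comparison was limited to its barcodes in the lower 50% of sarcomere level, a setting chosen after seeing the data, the sarcomere medians were 0.17 and -0.03. This comparison was limited by the sarcomere level itself, so its sarcomere ratio moves toward 0 by construction.

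The 10 genes lowest in members in both libraries were Mustn1, Cox6a2, Myh4, Casq1, Scg2, Myh1, Smpx, Myoz2, Mylpf and Ckm. Mustn1, a muscle regeneration protein, had 0.676 CPM against 32.3 in F/R/C and 22.1 against 155 in F/R/C+CP. Myh4, a fast myosin heavy chain, had 0.811 CPM against 36.9 in F/R/C and 18.5 against 127 in F/R/C+CP. Mylpf, the fast regulatory light chain, had 93.4 CPM against 1215 in F/R/C and 772 against 4492 in F/R/C+CP. Scg2, a secretory granule protein, known from the granules of neuroendocrine cells, stood among these muscle genes at 13.9 against 95.3 CPM in F/R/C iMPCs and 7.20 against 46.1 in F/R/C+CP, with log2 ratios of -2.78 (interval -3.09 to -2.47) and -2.68 (-2.83 to -2.53).

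**Figure D5:**
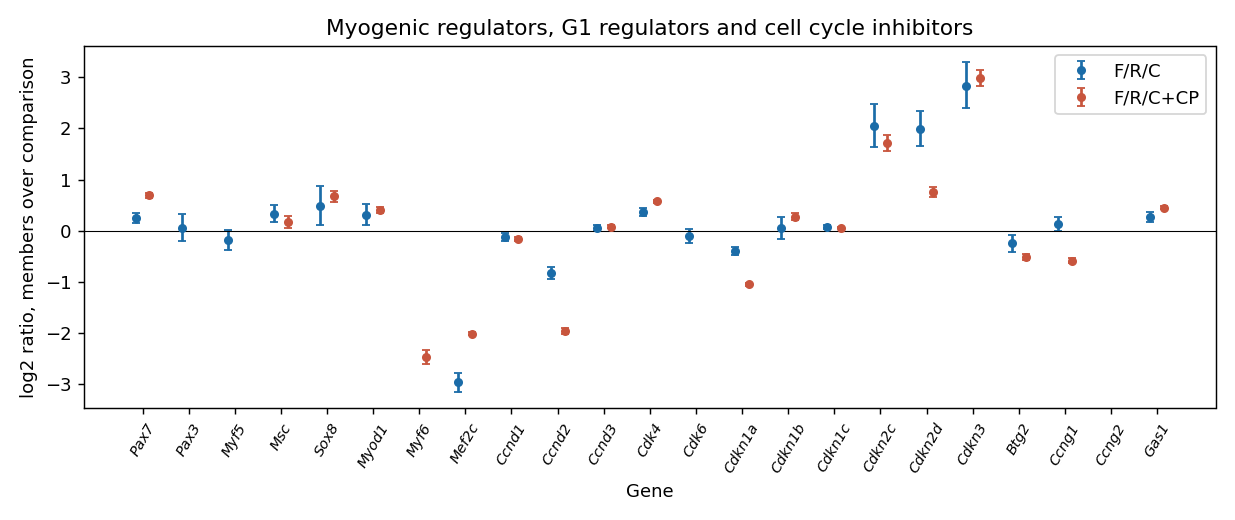
Log2 ratio of members over the comparison with 95% counting intervals for muscle regulators, G1 cyclins and kinases, and cell cycle inhibitors that passed the filter, with 1 point per library. Pax7, Myod1, Ccnd1, Ccnd3 and Cdkn1c lie within 1 of 0 in both libraries, Mef2c lies at -2.97 and -2.01, and Cdkn2c and Cdkn3 lie above 1 in both.

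The genes of G1, before the cell commits to division, differed little. None of 10 G1 cyclins and kinases was called in F/R/C and 1 of 9 was called lower in F/R/C+CP, with medians of -0.03 and 0.14. Ccnd1, which carries growth signals into G1, had 324 CPM against 351 in F/R/C and 154 against 171 in F/R/C+CP. Ccnd3, the D-type cyclin of muscle differentiation, had log2 ratios of 0.05 (interval -0.01 to 0.11) and 0.08 (0.05 to 0.11). Ccnd2 was the gene called lower, at 41.4 against 161 CPM in F/R/C+CP (-1.96, interval -2.03 to -1.90), and it had 115 CPM against 204 in F/R/C. Cdk4, the kinase of the D cyclins, had log2 ratios of 0.37 and 0.57. Cdk6, its relative, had 114 CPM against 122 in F/R/C, and 2.55 and 5.39, under the filter, in F/R/C+CP.

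The inhibitors of the cycle split by gene. Cdkn1c, which encodes p57, stood at 2072 CPM in members, 2009 in the middle group, 1964 in the comparison and 5443 in cycling Myog-high barcodes in F/R/C. The F/R/C+CP levels were 1978, 1972, 1899 and 6839 CPM. Summed over barcodes, members thus carried about as much p57 mRNA as the comparison. Within members it stood at 1701, 2136 and 2731 CPM over the 3 bins of the sum in F/R/C and at 1918, 2008 and 2143 in F/R/C+CP. Among barcodes deep enough to be thinned, Cdkn1c was seen in 76.4% of F/R/C members and 72.5% of the comparison. After thinning the shares were 66.4% and 63.0%. With CP they were 99.9% and 99.7% before thinning, and 83.8% and 81.3% after it. The summed level thus does not describe each F/R/C member. Cdkn1a, which encodes p21, a target of p53, had 344 CPM against 451 in F/R/C and 287 against 594 in F/R/C+CP, with log2 ratios of -0.39 and -1.05 that were 0.07 and -0.41 among barcodes with a Pax7 UMI. Cdkn1b, which encodes p27, had log2 ratios of 0.05 (interval -0.16 to 0.26) and 0.27 (0.20 to 0.34).

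Other inhibitors went the other way. Cdkn3, a phosphatase that acts on cyclin-dependent kinases, had 52.96 CPM against 7.43 in F/R/C and 49.4 against 6.24 in F/R/C+CP. Cdkn2c, which encodes p18, had 37.0 CPM against 8.95 in F/R/C and 23.7 against 7.22 in F/R/C+CP. Cdkn2d, which encodes p19, had log2 ratios of 1.99 (interval 1.65 to 2.35) and 0.77 (0.67 to 0.86), so it was called in F/R/C alone. Cdkn2b, which encodes p15, had -0.89 and -0.71, and Cdkn2a, the locus of p16 and p19ARF, -0.27 and -0.11. Among the further inhibitors Btg2 had -0.25 and -0.51, Gas1 0.27 and 0.45, and Ccng1 0.12 and -0.59, and Ccng2 was under the filter in both.

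Lists with medians well under 2-fold included the satellite cell list (medians of -0.15 and -0.27), Notch (0.05 and 0.12), JAK/STAT (-0.02 and -0.07), p53 targets (0.15 and 0.05) and immediate early genes (-0.12 and -0.42). None of these genes was called higher. In F/R/C+CP those called lower were 1 of 15 satellite cell, 1 of 12 Notch, 1 of 14 p53 target and 3 of 14 immediate early genes. In F/R/C they were 2 of 21 immediate early genes. Of all genes tested, 5.64% were called lower in F/R/C+CP and 3.17% in F/R/C. The collagen and matrix list gave medians of -0.41 and -0.43, with 4 of 22 and 6 of 21 called lower. Committed myogenic markers summed to 142 and 208 CPM in members and comparison in F/R/C and to 273 and 446 with CP, against 2659 and 1951 in cycling Myog-high barcodes. Most markers of other cell types were low or lower in members. Connective tissue markers summed to 248.9 and 381 CPM in F/R/C, with Pdgfra and Lum at 0 in members, and to 134 and 205 in F/R/C+CP with Lum at 0. Smooth muscle or pericyte markers, several of which muscle cells also express, summed to 795 and 1208 CPM in F/R/C iMPCs and 1041 and 2144 in F/R/C+CP. Melanocyte markers summed to 4.86 and 8.50 CPM in F/R/C, with Tyrp1, Tyr, Dct and Sox10 at 0, and to 36.8 and 99.2 in F/R/C+CP. Endothelial and immune markers summed to under 5 CPM in both groups of both libraries. Schwann or neural markers summed to 64.2 and 49.0 CPM in F/R/C and to 20.1 and 25.6 in F/R/C+CP.

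The cycling Myog-high barcodes were chosen by the same limit on the 7 rule genes as the members, so likeness in these genes and in those that move with them is set by the choice. The mitotic cyclins and kinases summed to 2186 CPM in members and 2025 in cycling Myog-high barcodes in F/R/C, and to 1853 and 1815 in F/R/C+CP. The cell cycle inhibitors summed to 3724 and 7212 CPM in F/R/C and to 3340 and 8362 in F/R/C+CP, most of it Cdkn1c. Rb1, the retinoblastoma protein that holds E2F factors, had 38.1 CPM in members against 232 in cycling Myog-high barcodes in F/R/C and 37.7 against 247 in F/R/C+CP. Hes6, a factor of committed myoblasts, had 52.2 CPM in members against 393 in F/R/C and 79.3 against 332 in F/R/C+CP. Myog set this boundary, so genes that move with Myog differ across it by choice.

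Members of both libraries had to reach the same sum of the rule genes, so the libraries were compared on other genes, some of which move with these. For F/R/C+CP members over F/R/C members the median log2 ratio was -0.27 over 22 mitotic cyclins and kinases, none of them 2-fold apart, and -0.16 over 48 replication genes. Over all 8205 genes tested the median was -0.13, with 371 (4.52%) at least 2-fold higher and 605 (7.37%) at least 2-fold lower in F/R/C+CP. Kif11 stood at 243 CPM in F/R/C members and 144 in F/R/C+CP members, a log2 ratio of -0.76 (interval -0.83 to -0.68).

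All 25 replication histones that passed the filter were higher in F/R/C+CP members, 19 of them at least 2-fold (median log2 ratio 1.71, and summed levels of 1639 and 3843 CPM). In the comparison barcodes 7 histones passed the filter, with a median of 0.98. H1f5 had a log2 ratio of 0.86 (interval 0.82 to 0.91) and H4c4 2.24 (2.12 to 2.35).

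Immediate early genes were lower in F/R/C+CP members, 14 of 18 at least 2-fold, with a median of -2.23 against -1.60 in the comparison. Fos stood at 111 CPM in F/R/C members and 8.56 in F/R/C+CP members, and Fosb at 66.3 and 0.833. Of the JAK/STAT list 7 of 19 were at least 2-fold lower in members and 7 of 19 in the comparison, with medians of -0.46 and -0.63. Socs2 and Socs3, which STAT factors induce and which restrain JAK kinases, reached 87.4 and 42.8 CPM in F/R/C members but 14.1 and 6.73 in F/R/C+CP members. Stat3, a signal carrier of the pathway, stood at 106 CPM in F/R/C members and 29.7 in F/R/C+CP members. The comparison barcodes had like gaps, with a log2 ratio of -2.65 for Socs2 and -2.81 for Socs3.

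Of the satellite cell list 8 of 17 were at least 2-fold lower in F/R/C+CP members (median -0.98), and of the G1 list 4 of 10 (median -0.73). The comparison barcodes had like gaps, with 10 of 17 satellite cell genes (median -1.33) and 3 of 10 G1 genes (median -0.54). Myf5 stood at 61.2 CPM in F/R/C members and 4.29 in F/R/C+CP members, with Msc at 100 and 21.7 and Hmga2, a chromatin protein of growing progenitors, at 570.5 and 30.6. Pax7 itself had a log2 ratio of -0.63 (interval -0.70 to -0.56) in members and -1.08 (-1.16 to -0.99) in the comparison. Cdk6 had -5.48 in members and -4.50 in the comparison, and Ccnd1 and Ccnd3 had -1.08 and -1.02 in members. Sarcomere genes were higher in F/R/C+CP members, 19 of 20 at least 2-fold, with a median of 3.103 against 1.78 in the comparison, and their summed level was 1795 and 8245 CPM. Muscle RNA in droplets of cells that do not make it was not measured apart from the cells' own, so its part in these values was not tested.

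Single genes also parted in their ratio of members over comparison. The ratio was lower in F/R/C by the widest margins for Fgf13 (-6.38, interval -9.44 to -4.50, from 2 counts in members, against -2.37), Trdn (-5.67 against -2.46), Mustn1 (-5.58 against -2.81), Gsta4 (-4.67 against -1.94) and Pkhd1 (-4.64 against -1.87). It was higher in F/R/C for Gas2l3, which links actin and microtubules in dividing cells, at 5.12 (interval 4.30 to 6.08) against 3.15 (2.95 to 3.35). H4c8 had 4.48 against 2.69, and Arhgap19 5.53 against 3.76. Lgals3, or galectin-3, had 148 CPM against 214 in F/R/C and 34.05 against 169 in F/R/C+CP, with log2 ratios of -0.53 and -2.31.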

How the data were processed

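The authors used Cell Ranger 7.0.0 with mouse build GRCm39 to produce the deposited UMI counts for 25828 features (46 share a symbol and were kept apart). STARsolo and Seurat 4.2.1 are further tools named in the submitters' processing notes. A correction of F/R/C+CP counts for free RNA is described in the methods of the study, and whether the deposited whole-number counts include it is unknown. No cell annotation was used.

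Barcodes were kept with 250 to 4000 detected genes in F/R/C or 250 to 7000 in F/R/C+CP, and with mitochondrial and ribosomal protein counts of no more than 15% and 40%. Counts were summed over the barcodes of a group and scaled to CPM. Genes needed a mean of 10 CPM and 20 counts over both groups, a sum of 0 was set to 3 counts, and 2-fold was called. The 7 rule genes and Myog were left out of the lists. Intervals (95%) are exact: Clopper-Pearson for shares, conditional binomial for ratios. Since each group was 1 library, nothing was tested. The kept depths of 500 to 23465 UMIs in F/R/C and 12097 to 113007 in F/R/C+CP limit single-barcode values. Barcodes were thinned without replacement (seed 1). Scrublet calls were too few to act on, so the 176 and 1040 highest scores were removed as an alternative. The other alternatives changed the sum limits, Myog limit, depth, gene limit, filter, scaling, pseudocount and comparison.

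Members and gene lists were chosen with earlier results of these data known. Named genes were the rule genes, the 10 highest and 10 lowest called in both libraries, leading and opposing genes of each list, check genes, muscle regulators, G1 cyclins, inhibitors, the 5 each way that differed most between libraries, and other cell type markers. Hes6, Rb1 and the genes named between libraries were chosen after their values were seen. Promoters were matched by symbol to the RefSeq table of GRCm38.p6. The calculations were tested on simulated data and run in Python 3.11.15 with numpy 2.4.6, scipy 1.17.1, pandas 2.3.3, scanpy 1.11.5 and matplotlib 3.10.9.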

Additional observations from a re-analysis of the deposited data

Results flagged for a closer look

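Usp2, a deubiquitinase, had a log2 ratio of members over the comparison of 0.32 in F/R/C (interval 0.04 to 0.61; 33.8 and 27.01 CPM) and -1.42 in F/R/C+CP (-1.54 to -1.30; 13.1 and 35.1 CPM), and so lay on opposite sides in the 2 libraries. The difference was not tested, since each library stands for 1 clone. Among the 7699 genes tested in both, 278 had opposite signs with both counting intervals off 0, and Usp2 was 1 of 73 named genes looked at.

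The quality limits left out barcodes that met the rule, 177 of the F/R/C library and 104 of the other. Of these, 93 and 74 were left out by the upper limit on detected genes alone, with median depths of 14456 and 52893 UMIs, above the median of 8629 and 24722 UMIs in members. They made up 65.5% of the F/R/C barcodes past that limit and 20.8% of the F/R/C+CP ones.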

How the results depend on the processing

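The share of members was 27.9% in F/R/C iMPCs and 24.8% in F/R/C+CP with a sum of at least 15 and 15.1% and 12.7% with 30. In F/R/C it was 24.6% with at least 4000 UMIs and 24.4% with no upper gene limit, and in F/R/C+CP 18.8% with Myog under 2 and 18.0% after thinning. The 268 genes higher in both libraries were 75 against the middle group, 73 of them among the 268 (27 of the 268 changed direction in at least 1 library), and 77 at a mean of 50 CPM. The 166 lower were 97 with Myog under 2, 47 among barcodes with a Pax7 UMI (43 of them among the 166), 6 against the middle group (none among the 166, of which 20 changed direction), 39 at 50 CPM, 523 with 20 counts only and 45 against the lower 50% of sarcomere level, a setting added after seeing the data (24 of them among the 166, of which 63 changed direction). The mitotic cyclin and kinase medians were 1.12 and 1.003 against the middle group, 4.29 and 2.84 at 50 CPM, and 2.82 and 2.68 with a pseudocount of 5 CPM. In F/R/C+CP they were 3.40 after thinning, 3.64 with a Pax7 UMI and 3.56 against the sarcomere-low comparison. The replication medians were -0.24 and -0.37 against the middle group. In F/R/C+CP they were 0.56 with a sum of at least 30, 0.48 with Myog under 2, 0.43 with a Pax7 UMI, 0.59 when centred, 0.59 at 50 CPM, 0.59 with a pseudocount and 0.34 against the sarcomere-low comparison. The sarcomere medians were -3.28 and -2.19 at a sum of 15, -2.61 and -1.25 with Myog under 2, -2.61 and -1.75 after thinning, -1.57 and -1.17 with a Pax7 UMI, -0.69 and -0.56 against the middle group, -2.84 and -2.13 with a pseudocount, and 0.17 and -0.029 against the sarcomere-low comparison. They were -3.27 in F/R/C with 4000 UMIs, and -2.29 at a sum of 30 and -2.35 when centred in F/R/C+CP. The homologous recombination median of F/R/C+CP was -0.092 against the middle group. The causes of these changes were not tested. With the highest doublet scores removed, 265 of the 268 and 163 of the 166 genes remained. No paired analysis was possible because there was 1 library per group. Shallow F/R/C barcodes limit what a single barcode can show.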
